A study of Mus musculus with 16 samples.

Results

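The 8 arrays of uteri that received no estrogen were described by the level of their signals, out of 16 arrays in the series. They were chosen by their labels: 4 samples of wild-type (WT) mice and 4 of Arg260 mice, all given castor oil without hormone (0 µg/kg, labelled PLB and called vehicle here). Arg260 mice carry an estrogen receptor alpha named for its arginine Arg260, and the labels do not state how that residue was changed. All mice, vehicle and treated alike, had been ovariectomised at 4 weeks of age and kept on normal chow for 2 to 3 weeks before a subcutaneous injection, with uteri collected 6 h later. The other 8 arrays, 4 of each genotype, came from mice given 8 µg/kg of 17beta-estradiol (E2) in castor oil. The strain is not given in the sources used here, and whether replicates were separate animals is not stated, so the spread between them may be technical.

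The uterus is a muscular tube. Its wall is made of smooth muscle, the myometrium, around an endometrium of fibroblast-like stroma, luminal epithelium and glands, with vessels and resident immune cells. Its growth and secretion are driven by ovarian estrogen, acting mainly through estrogen receptor alpha, and by progesterone. After ovariectomy the organ shrinks, epithelial cells stop dividing, and a small atrophic tissue remains that can still answer estrogen within hours. RNA came from the whole organ, so fewer cells of a type and less RNA per cell cannot be told apart.

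Each array held 59305 spots of mouse probes, each probe 60 bases long, and 61.7% to 70.6% of them were well above background on the vehicle arrays by the scanner's flag, with 0 spots saturated. A level is the log2 ratio of a probe's processed signal to the 75th percentile of its array, so that 0 is that percentile and 1 unit is a doubling. A percentile places a probe among all probes of the same array. Signals depend on the sequence and labelling of a probe as well as on its transcript, so the order of signals is not an order of transcript numbers. Of 34741 gene names, each read by its brightest probe, 433 were at or above the 99th percentile on all 8 arrays (the brightest class), 3947 at or above the 90th (bright), 17983 well above background on all 8 but lower (moderate) and 5546 well above background on some arrays or by another probe only (intermittent). The remaining 6832 (19.7%) were not well above background by any probe on any vehicle array. The 99th percentile lay at a level of 6.64 to 6.81 and the 90th at 2.32 to 2.43 on the 8 arrays. Among official symbols, Anapc5 (lowest percentile 99.01) was just inside the brightest class and Mtif2 (98.996) just outside it.

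On 2 arrays many genes stood apart. On Arg260 vehicle replicate 3, 192 genes read more than 4-fold above the median of the other 7 arrays, against 5 to 17 on each other array. On WT vehicle replicate 2, 100 genes read more than 4-fold below, and 98 of them belong to 228 probes that have no value for this sample in the authors' deposited series table. Psmb3, a proteasome subunit, is one of the genes read low only there: its level was -8.35 on WT vehicle replicate 2 and 4.21 or higher on the other arrays. Some of the counts and tests that these arrays change are given with and without them, but not all. The intermittent class held 5546 names with all arrays, 5277 without WT vehicle replicate 2 and 5156 without Arg260 vehicle replicate 3. The class not above background held 6832, 7003 and 7215 names in the same order.

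Of the 433 names in the brightest class, 277 had no official symbol, and their make-up is not described here. Of the whole class 34.9% were protein coding by annotation, against 58.0% of all names. The class held 156 genes with an official symbol, of which 70 encode proteins of the cytosolic ribosome and 12 are pseudogenes of them or have related names. A further 46 were of mixed function. They included Actb (actin, mean level 8.31), Fth1 (ferritin), Myl9 (myosin light chain) and Dcn (decorin), each read by 1 probe. They also included gene names whose other probes read far lower. The bright probe named for Dcc, a netrin receptor, had a mean level of 7.81, with its other probes at -5.87 and -7.26. The one named for Pigr, which carries antibodies across epithelia, had 7.63, with the other at -4.56. The bright Dcc and Pigr probes lie at chr7:68417162-68417221 and chr13:108165151-108165210 of build mm9. Whether their signals come from the named genes was not tested. These examples were chosen after their values were seen. The last 28 had probes with shared words. Slc10a1, a bile acid transporter of the liver, had the highest mean percentile of all named genes, with a lowest level of 8.80, a median of 8.98 and a highest of 9.13 over the 8 arrays. Its other probe was at -8.27 and not well above background. Kctd14, Glrx2 (a mitochondrial glutaredoxin), Elk1 (an ETS-family transcription factor), Exosc2 (an RNA exosome subunit), Milr1 (a mast cell receptor), Pirb (an immunoglobulin-like receptor of myeloid cells) and Fam177a2 were also among the 25 named genes with the highest percentile.

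The probes behind these readings shared short words of 10 bases. A search over probes of the brightest class with official symbols, leaving out ribosomal protein genes and simple repeats, found 4 words that each occurred in at least 3 genes. They are shown because they mark the readings that stand out from the abundant transcripts around them. Stretches of 30 bases of the probes follow, 5′ to 3′ as in the files, with the shared word in capitals.
Kctd14: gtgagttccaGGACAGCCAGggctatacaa
Glrx2: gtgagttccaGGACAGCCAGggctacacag
Elk1: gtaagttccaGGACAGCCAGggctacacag
Cxcl11: aggagtttcaGGACAGCCAGggctacacag
Slc10a1: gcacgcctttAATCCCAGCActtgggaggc
Csf3r: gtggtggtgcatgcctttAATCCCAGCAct
Exosc2: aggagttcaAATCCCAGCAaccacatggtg
Milr1: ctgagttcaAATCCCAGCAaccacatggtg
Pirb: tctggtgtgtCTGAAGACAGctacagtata
Fam177a2: cttctggtgtCTGAAGACAGctacagtgtt
Clca1: tcttgtgtgtCTGAAGACAGcaacagtgta
The probes of Kctd14, Glrx2 and Elk1 lie at chr7:104606896-104606955, chr1:145596708-145596767 and chrX:20510521-20510580 of build mm9, those of Slc10a1, Exosc2 and Pirb at chr12:82056539-82056598, chr2:31536706-31536765 and chr7:3663046-3663105. As background, the stretches resemble mouse B1 and B2 elements, short interspersed repeats present in very many copies, in transcripts of many genes; no repeat annotation was used here. The word CTGAAGACAG was in the probes of 14 genes of the brightest class, 4 bright, 6 moderate, 0 intermittent and 2 genes not above background. The word GGACAGCCAG was in 9 brightest, 2 bright, 2 moderate, 1 intermittent and 0 not above background. The word AATCCCAGCA was in 5 brightest, 2 bright, 8 moderate, 1 intermittent and 1 not above background. The word GATGGCTCAG was in 3, 3, 8, 2 and 0 in the same order. All were searched on the strand of the probe. At least 1 of the 4 words was in 7.16% of the brightest probes, 0.279% of the bright and 0.133% of the moderate. The share was 0.0721% of the intermittent and 0.0439% of those not above background. The words were chosen on the brightest probes, so these shares describe the choice and were not tested.

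In all, 28 official genes of the brightest class had such a word. Of these, 23 had another probe, and the brightest of the other probes was well above background on all 8 arrays in 19. Over those 19 the median gap to it was 7.26 log2 units, the smallest was 1.30, and 13 gaps exceeded 5. In the other 4 that probe was not above background on every array, so no gap is given. Of the brightest ribosomal protein genes, 55 had another probe, all above background, with a median gap of 0.46 and 2 gaps over 5. Of the 46 remaining genes, 19 had another probe above background on all 8 arrays, with a median gap of 2.45 and 5 gaps over 5, so large gaps were not confined to probes with a shared word. The lower probes of Pirb, for example, were at 1.19 and -7.17 against a median of 8.65 for the first, and the lower probes of Kctd14 at 0.84 and -3.50. Clca1, a secreted mucus protein, and Csf3r, the receptor of granulocyte colony-stimulating factor, were the only brightest members of the lists of estrogen-induced genes and of neutrophil markers, and both were read by such probes. Levels of the 28 genes hardly moved between arrays, with a largest SD of 0.15 over the 8 vehicle arrays, and their mean level on the E2 arrays differed from that on the vehicle arrays by -0.06 to 0.07. When a gene was given the mean of all its probes, 0 of these 23 genes with several probes stayed in the brightest class, against 28 of the 55 ribosomal protein genes with several. Genes with 1 probe, 5 and 15 in these sets, cannot change under this setting. Whether these signals come from the named genes was not tested.

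**Figure D1:**
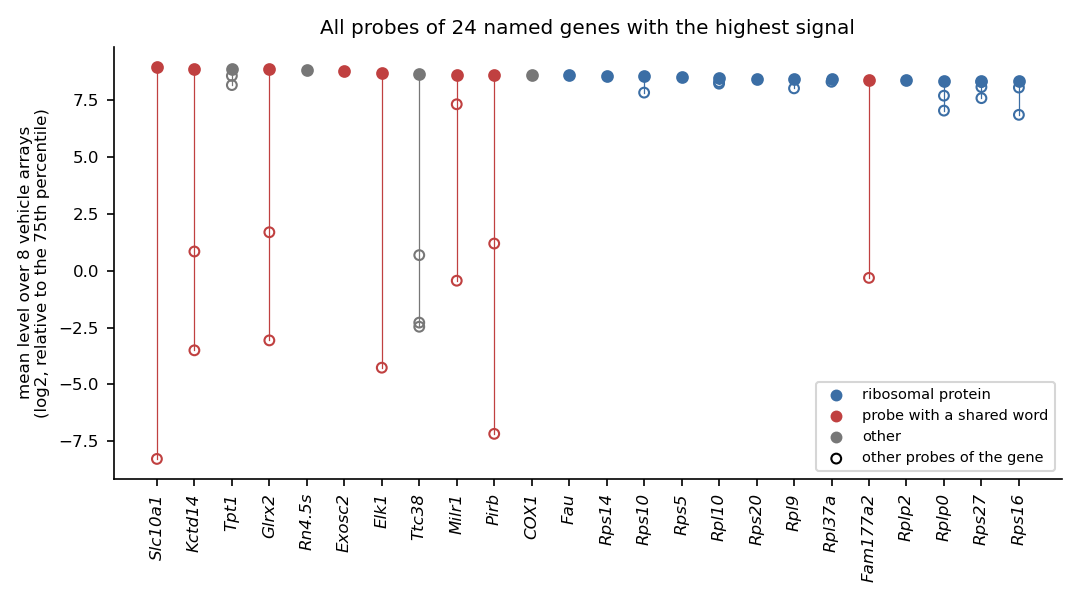
Mean level over the 8 vehicle arrays of every probe of 24 of the 25 named genes with the highest mean percentile; filled circles are the probe that stands for the gene, open circles its other probes. The other probes of Rpl10 lie close under the first, at 8.29 and 8.21, whereas that of Slc10a1, whose first probe holds a shared word, lies at -8.27.

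All 79 cytosolic ribosomal proteins were brightest (70) or bright (9), with a median percentile of 99.7 against 58.2 over all genes. Fau, which encodes a ubiquitin-like protein fused to a small-subunit protein, had levels of 8.50, 8.59 and 8.64 (lowest, median and highest). The dimmest member, Rps21, still had 5.64, 5.96 and 6.17. The arrays barely differed: the mean level of the list ran from 7.54 to 7.71 over all 8. Tpt1, a translationally controlled growth protein, read 8.74 to 9.04, and its other probes averaged 8.56 and 8.15. Eef1a1, which brings aminoacyl-tRNA to the ribosome, had a median of 7.54. Eef1e1 had 0.37, the lowest of the 6 genes listed by name as elongation factors.

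Of 75 subunits of the electron transport chain and ATP synthase encoded in the nucleus, 1 was brightest and 68 bright, with a median percentile of 96.8. Cox6a1, of cytochrome oxidase, had levels from 6.72 to 7.26. COX1, the catalytic subunit of the same enzyme encoded in mitochondrial DNA, had 8.42, 8.63 and 8.68. Ndufa8 was the only member not well above background on all 8 arrays, through a level of -8.16 on WT vehicle replicate 2, a spot with no value in the authors' table, against 1.52 to 2.02 on the other 7. Antioxidant and iron storage genes held 2 brightest and 18 bright of 29: ferritin heavy chain Fth1 had a median of 7.74 and ferritin light chain Ftl1 levels from 7.52 to 7.74. Of 14 proteasome core subunits, 10 were bright, and 11 without WT vehicle replicate 2. Psmb6, with a median of 5.44, was the highest and Psmb2, with 0.52, the lowest.

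Promoters differed between the signal classes. RefSeq promoters (build GRCm38.p6, 250 bases before to 50 after each gene's start) were searched for CGGAAG on both strands, the core of the site of ETS-family factors. It was found in 40 of 58 ribosomal protein genes with a promoter in the table. Only 110 of the 433 brightest genes had a promoter in the table. The share of genes with the word was 46.4% in the brightest class (51 of 110), 38.5% in the bright and 28.5% in the moderate. It was 10.8% in the intermittent and 6.45% in the class not above background. Over all 27025 genes of the table it was 18.8%, but many of these genes belong to no signal class. The 18.8% is therefore not the share over the signal classes together. Without the ribosomal protein list the brightest class had 29.5% (18 of 61), below the bright class. The median GC content of the promoters was 56.7%, 61.3%, 59.0%, 50.7% and 46.3% from the brightest class to the class not above background, and its part in the motif share was not tested. TATAAA on the sense strand, 40 to 18 bases before the start, had lower shares in the brighter classes. They were 0.909% (1 of 110), 1.32%, 2.17%, 5.22% and 5.07% from the brightest class to the class not above background. Without the ribosomal protein list the brightest class had 1.64% (1 of 61), above the bright class. The share of all genes of the table was 2.34%. Ribosomal protein genes are known to begin in a run of pyrimidines. The pyrimidine word CTTTCC between 10 bases before and 12 after the start was in 8 of 58 ribosomal protein genes (13.8%). It was in 1.08% of all genes of the table. A match is a match of letters only.

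These ribosomal protein promoters are shown because they hold both words, in capitals, from 80 bases before to 20 after the start.
Rpl15: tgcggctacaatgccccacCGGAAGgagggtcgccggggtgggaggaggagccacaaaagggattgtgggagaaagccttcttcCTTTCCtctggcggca
Rpl38: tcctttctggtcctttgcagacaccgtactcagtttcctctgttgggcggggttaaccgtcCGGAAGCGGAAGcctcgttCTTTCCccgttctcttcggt
Rps10: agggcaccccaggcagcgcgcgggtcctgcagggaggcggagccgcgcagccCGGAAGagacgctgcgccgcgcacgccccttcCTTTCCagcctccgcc
Rps27: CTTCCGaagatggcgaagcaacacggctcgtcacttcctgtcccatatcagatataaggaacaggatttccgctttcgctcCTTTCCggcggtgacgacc
They lie at chr14:18270967-18271066, chr11:114668500-114668599, chr17:27635225-27635324 and chr3:90213629-90213728 of GRCm38.p6, on the minus, plus, minus and minus strands. In Rps27 the ETS-type word is on the other strand and reads CTTCCG.

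The estrogen-induced genes held TATAAA in that window in 8 of 33 genes (24.2%), namely Areg, Cxcl15, Fos, Muc1, Padi4, Sprr2b, Sprr2e and Sprr2f. Fos and Sprr2f are shown with the word in capitals, from the same window.
Fos: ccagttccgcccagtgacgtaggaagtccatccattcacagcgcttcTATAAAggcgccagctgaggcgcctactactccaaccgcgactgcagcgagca
Sprr2f: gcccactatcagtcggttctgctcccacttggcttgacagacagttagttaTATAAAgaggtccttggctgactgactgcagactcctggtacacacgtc
They lie at chr12:85473810-85473909 and chr3:92365107-92365206 of GRCm38.p6, both on the plus strand. At rest none of the 8 was bright: 5 were moderate, Sprr2e intermittent, and Areg (an EGF-family ligand) and Sprr2b (a cornified envelope protein) not above background.

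**Figure D2:**
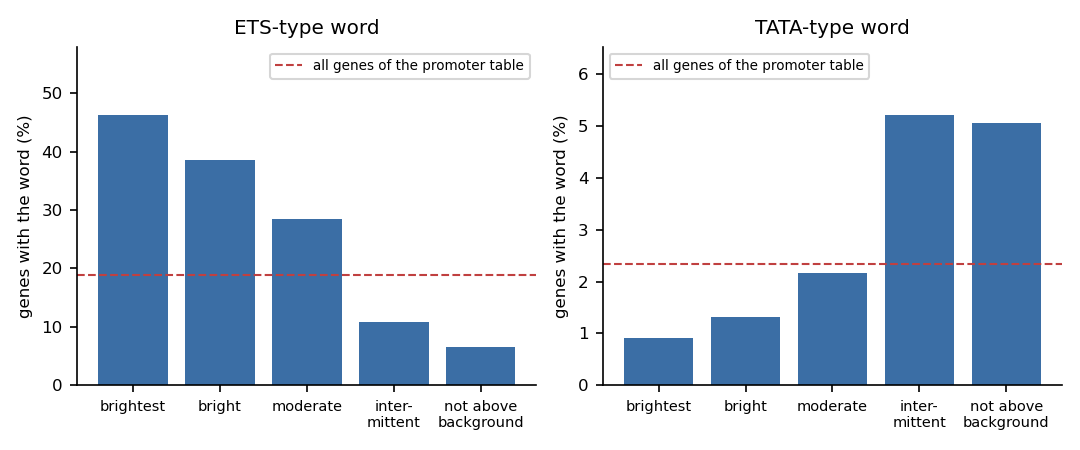
Share of genes in each signal class whose RefSeq promoter holds an ETS-type word anywhere (left) or a TATA-type word 40 to 18 bases before the start (right). The dashed line is the share of all genes of the table, many of which belong to no signal class. The first share falls from 46.4% in the brightest class, where it is 29.5% without the ribosomal protein list, to 6.45% in the class not above background. The second is 0.909% (1 gene of 110) and 5.07% in those classes, and 1.64% in the brightest class without that list.

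Smooth muscle and stroma gave the highest levels of all cell type marker lists. Of 20 markers of myometrial smooth muscle, 4 were brightest and 8 bright, with a median percentile of 96.1. The 4 were Myl9 (the regulatory myosin light chain; lowest, median and highest level 7.71, 7.98 and 8.30), Tagln (an actin-binding protein of smooth muscle; 7.18, 7.56 and 7.78), Acta2 (smooth muscle actin; 7.22, 7.45 and 7.90) and Flna (filamin A; 7.04, 7.42 and 7.69). Arg260 vehicle replicate 4 was the highest for each of them. Myocd, the coactivator that drives this programme, had a median of 0.47, and Lmod1, an actin nucleator, had -2.11, the lowest of the list. Of 17 markers of endometrial stroma, 1 was brightest and 10 bright, with a median percentile of 95.1. Dcn (decorin, a small matrix proteoglycan) had 7.89, 8.15 and 8.38, and Sparcl1, a matrix glycoprotein outside this list, 7.91, 8.15 and 8.31. Col1a2 and Col3a1, chains of fibrillar collagen, had medians of 6.05 and 5.10, yet over 41 collagen chains the median percentile was 71.5, and Col9a3 and Col10a1, chains of cartilage, were not above background.

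Epithelium was present at lower levels. The 20 markers of luminal and glandular epithelium had a median percentile of 83.2, with 6 bright. Krt18, a keratin of simple epithelia, had levels of 5.92, 6.15 and 6.43, and Cldn3, a tight junction protein, 4.30, 4.50 and 5.29. Muc1, a surface mucin, had a median of -3.44. The 10 gland markers had a median percentile of 44.0 and none was bright. Foxa2, the transcription factor of glands, had a median of -0.74 and was well above background on all 8 arrays, whereas the gland protease Prss29 was above background on 3. Krt5 and Krt15, keratins of basal cells of stratified epithelia, were among the genes that varied most: Krt5 was at 0.50 on Arg260 vehicle replicate 1, -1.20 and -1.99 on WT vehicle replicates 1 and 2, and between -5.39 and -3.75 on the other 5. Krt15 was highest on the same 3 arrays, with 0.11, -1.33 and -2.18.

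Blood endothelium had a median percentile of 83.3 over 16 markers, all above background on all 8 arrays, with Egfl7, an endothelial matrix protein, at a median of 5.34. Macrophage markers had 82.6 (82.5 without Arg260 vehicle replicate 3), T cells 68.6, NK cells 56.2, B and plasma cells 53.2 and neutrophils 39.1. Csf1r, the receptor of the macrophage growth factor, had 3.45, 3.74 and 4.43, the highest of the macrophage list. In the neutrophil list 4 of 10 genes were not above background. The 10 mast cell markers had a median percentile of 68.3. Of these, 6 were above background on all 8 arrays (60%, against 64.4% of all genes), 3 were intermittent and 1 was not above background. Among them, Hdc, which makes histamine, had a median of 3.50 and Mcpt4, a protease of connective tissue mast cells, 1.17. The ovarian list had a median percentile of 34.2. Its highest member Foxl2, also a factor of uterine stroma, had a median of 4.31, while the gonadotropin receptors Fshr and Lhcgr were not above background. Xist, transcribed from the inactive X chromosome, had levels of 1.29, 1.48 and 1.77; of the Y-linked genes, Ddx3y, Uty and Kdm5d were not above background on any vehicle array and Eif2s3y was above it on 2, at -6.92 to -6.10.

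**Figure D3:**
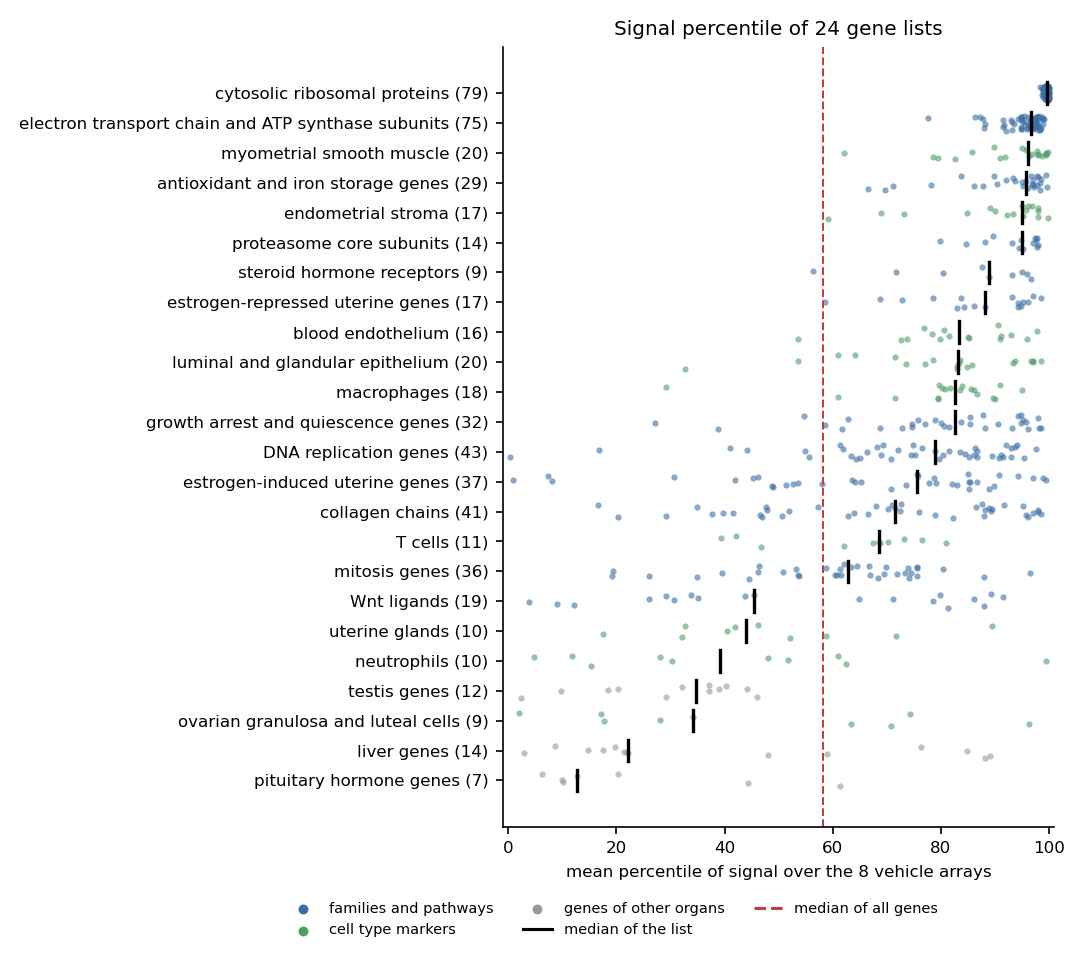
Mean percentile over the 8 vehicle arrays of each member of 24 gene lists, with the number of members measured; black bars are list medians and the dashed line is the median of all genes, 58.2. Ribosomal proteins, respiratory chain subunits, smooth muscle and stroma lie at the top, and genes of other organs at the bottom.

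All 9 steroid receptor genes were above background on all 8 vehicle arrays. Esr1, which encodes estrogen receptor alpha, had 3.53, 3.59, 3.78 and 3.67 on WT vehicle replicates 1 to 4 and 3.83, 3.88, 3.57 and 3.87 on those of Arg260. The groups overlapped, and the values place this probe at percentile 95.0. The 3 other Esr1 probes averaged 0.61, -0.06 and -1.85. Esr2, for estrogen receptor beta, was at percentile 93.1, with levels of 2.96 to 3.31 from its only probe, at chr12:77221426-77221485 (mm9). Pgr, the progesterone receptor and a well-known estrogen target, had 2.33, 2.03, 2.00 and 2.49 in WT and 2.07, 2.35, 1.66 and 2.83 in Arg260; its lower probes averaged -0.62 and -1.48. Nr3c1, the glucocorticoid receptor, had 3.96 to 4.21, and Nr3c2, the mineralocorticoid receptor, -3.46 to -1.87. Gper1, a membrane receptor that binds estrogen, had -1.05 to -0.33. Pgrmc1, a haem-binding membrane protein, was the highest of the 9 at 4.24 to 4.49. All had overlapping genotypes. Of 23 coregulators and chaperones, 1 was brightest, Hsp90ab1 (a chaperone that holds receptors ready for ligand; median 7.33), and 9 were bright; Fkbp5, a cochaperone and glucocorticoid target, had -0.80, -0.25 and 1.06.

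**Figure D4:**
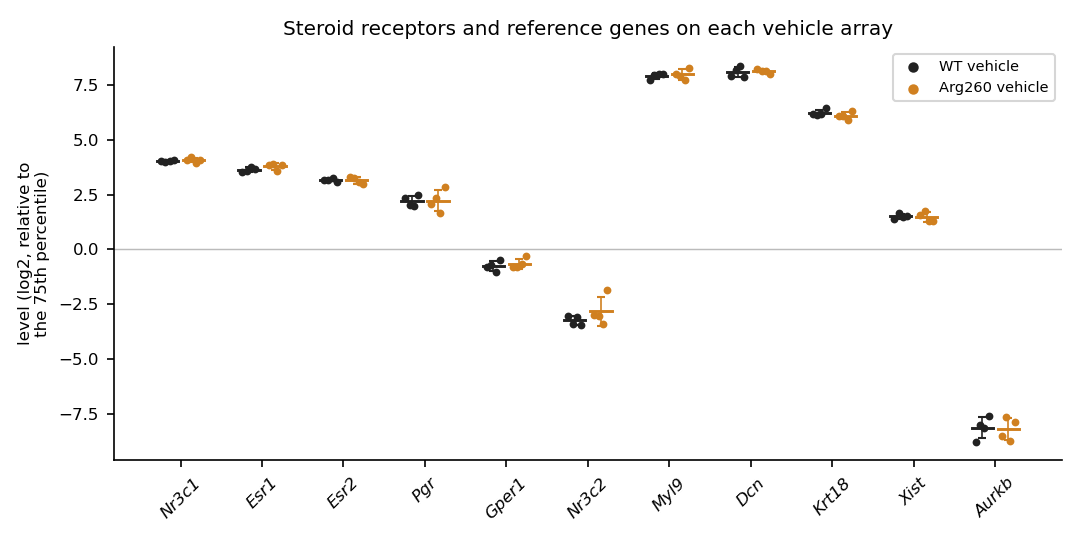
Level of 6 steroid receptor genes and 5 reference genes on each WT and Arg260 vehicle array (points), with the mean and SD of each group of 4. The genotypes overlap for all 11 genes, from Dcn and Myl9 near 8 to the mitosis kinase Aurkb, which was not above background.

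The list of estrogen-induced genes lay below that of estrogen-repressed genes, with median percentiles of 75.7 over 37 genes and 88.2 over 17. Both lists were chosen with earlier results of these data known, so the choice itself may have set this order. With E2, 30 of 35 tested genes of the first list were higher and 1 lower (limma, adjusted p under 0.05). In the second list 12 of 17 were lower and 5 higher. Over all genes tested, 36.8% were higher and 36.1% lower. The same choice may have set these E2 counts, so they describe the lists and are no test of them. C3, the complement component that estrogen induces in epithelium, was the highest of the first list that was not read by a probe with a shared word (6.24, 6.60 and 6.86). Sprr2a1 and Sprr2b were not above background. Sprr2a2, a relative outside the list, was read in the brightest class by 1 probe (mean level 8.02), while its other probes were at -5.28 and -8.22. Of the second list, Txnip, an inhibitor of thioredoxin, had 5.66, 6.03 and 6.43, and Thra, a thyroid hormone receptor, 4.47, 4.63 and 4.84. Growth arrest genes had a median percentile of 82.6 over 32, with Gas6, a ligand of TAM receptors, at a median of 5.65.

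Cell cycle genes were split. Genes of DNA replication had a median percentile of 78.9, with 9 of 43 bright, and mitosis genes 62.8, with 1 of 36 bright. Over all genes 11.4% were bright. Most members were above background on all 8 arrays, 95.3% and 86.1% of the 2 lists against 64.4% of all genes. Not above background were 2 of 43 and 3 of 36, against 19.7% of all genes. Gins3 and Mcm6, parts of the replicative helicase, had levels of 4.82 to 5.05 and 3.56 to 3.94, whereas Ccne2 (cyclin E2) and Orc1 (origin recognition) were not above background. Pttg1 (securin) was the only bright mitosis gene, with 4.08, 4.28 and 4.58; Aurkb and Cenpf, of the mitotic kinase and kinetochore, were not above background. Of 29 immediate early genes, Jun and Jund, AP-1 subunits, had medians of 4.64 and 4.45, and Nr4a3 and Egr3 were not above background. Fos varied widely, from -1.79 to 1.22.

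Hox genes, which set position along the body axis, covered a wide range of levels within each cluster. Hoxa11 and Hoxa10, factors of the uterine segment, had medians of 3.82 and 2.97 and were the highest of 11 Hoxa genes; Hoxa13, of the more caudal tract, had -5.50 and was above background on 6 arrays. Hoxd4 (2.94), Hoxc6 (2.65) and Hoxb6 (2.58) led the other clusters. Not above background were 0 of 11 Hoxa, 2 of 10 Hoxb, 2 of 9 Hoxc and 3 of 9 Hoxd genes, against 19.7% of all genes. They included Hoxb1, Hoxb13, Hoxc12, Hoxc13, Hoxd1 and Hoxd12. The clusters are small, and differences between their counts were not tested. Of 19 Wnt ligands, Wnt5a (2.73) and Wnt5b (2.25) were the highest. Not above background were 4 of the 19, close to the share of 19.7% over all genes. Of the hedgehog, BMP and retinoid genes, Smo, the hedgehog signal transducer, had 4.56, 4.74 and 4.86, and the ligand Shh was not above background. Igfbp6, which binds IGF2, had a median of 6.79 and Igfbp1 was not above background. Of 16 genes of MHC class I and peptide loading, 11 were bright, with the class I gene H2-Q4 at a median of 6.63. Tap1, the peptide transporter, had -1.85.

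The dark end of the arrays held genes of other organs. Median percentiles were 12.6 for pituitary hormones, 22.1 for liver, 25.4 for pancreas, 33.8 for retina and lens, 34.6 for testis and 35.1 for brain neurons. The genes Fgg and Fgb (fibrinogen), Gcg (glucagon), Tshb and Fshb (pituitary hormones), Odf1 (sperm tail) and Gad1 (GABA synthesis) were not above background. In the pituitary list Pomc was moderate with a median of -2.31, and in the liver list Cyp2e1, also expressed in fat, ran from 0.76 to 3.43. By name, a grouping chosen after the values were seen, 773 of 1103 olfactory receptor genes (70.1%), 185 of 263 vomeronasal receptor genes (70.3%) and 26 of 35 bitter taste receptor genes (74.3%) were not above background, against 19.7% of all genes, and none of the 3 families had a bright member. The signal of such a probe has no level: the median reading of the class was -8.19.

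Levels were stable between most arrays. Over 22363 genes above background on all 8, the SD within a genotype had a median of 0.17, and 184 genes (0.823%) had an SD over 1. That count was 104 without Arg260 vehicle replicate 3, 174 without the spots that have no value in the authors' table, and 94 without both. The 10 named genes with the largest SD were Fpr1, Timm21, Krt5, Cyp26b1, Slc13a3, Zfp712, Hap1, Myh6, Krt15 and Cd72. Timm21, Zfp712 and Hap1 owed it to WT vehicle replicate 2, with levels of -5.14, -5.10 and -4.60 there; without such spots their SDs were 0.13, 0.10 and 0.20. Cyp26b1, which degrades retinoic acid, kept its SD (1.87, and 1.89 without such spots): it was highest on Arg260 vehicle replicate 4 (3.65), WT vehicle replicate 1 (2.24) and Arg260 vehicle replicate 1 (1.53), and between -1.78 and 0.27 on the others. Myh6, a myosin heavy chain of striated muscle, was at -5.26 on Arg260 vehicle replicate 3 and between -2.57 and 0.10 on the other 7.

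On Arg260 vehicle replicate 3, 15 of 18 macrophage markers were higher than on every other vehicle array, 10 of them by more than 4-fold over the median of the other 7; over all official genes 11.7% were highest on that array. The mean level of the list was 2.26 there and 0.37 to 0.82 on the other 7. Adgre1, the macrophage surface protein F4/80, was at 4.64 against -0.14 to 0.37, Aif1 at 5.54 against 0.87 to 1.61, and Fcer1g, an Fc receptor chain, at 5.04 against 1.31 to 1.73. Fpr1, a receptor for bacterial peptides, was at 2.46 against -5.15 to -3.44, and Cd72, a B cell protein, at 3.78 against -1.28 to -0.53. Of 8 B and plasma cell markers 5 were highest there. Jchain, which joins secreted antibodies, was at 6.02 against 1.22 to 3.42. The means of the uterine gland (-3.51), eosinophil (-3.46), mitosis (-1.92) and complement (0.96) lists were also highest there, and 4 of 10 gland markers were. The smooth muscle and blood endothelium lists had their lowest means on the same array, 3.59 and 0.98, against 3.67 to 4.39 and 1.29 to 1.53 on the others, and the pericyte (1.73) and mesothelium (1.18) lists were lowest there too, as were several lists of other kinds. Neutrophil and T cell markers were not highest there by list mean. The part of these markers in other results was not tested.

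Fat and blood varied on other arrays. The mean of 12 adipocyte markers was 1.63, 2.00, 1.76 and 0.41 on WT vehicle replicates 1 to 4 and 0.10, 1.29, 0.34 and 0.88 on those of Arg260. Fabp4, a fatty acid carrier of adipocytes, ran from 2.55 to 5.42 and Cfd (adipsin) from 3.42 to 5.93. Both were lowest on Arg260 vehicle replicate 1. Haemoglobin Hba-a1 ran from 3.16 on WT vehicle replicate 1 to 5.88 on WT vehicle replicate 4.

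**Figure D5:**
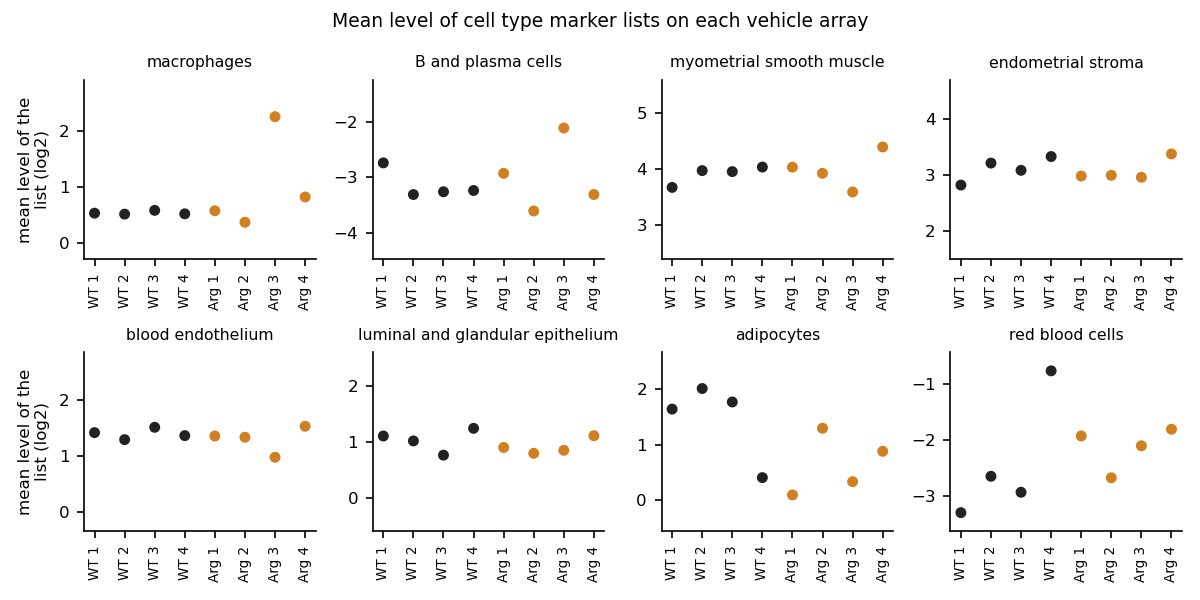
Mean level of 8 lists of cell type markers on each vehicle array; every panel spans the same range of log2 units. Macrophage (2.26) and B and plasma cell (-2.12) markers are highest on Arg260 vehicle replicate 3, adipocyte and red blood cell markers spread over both genotypes, and epithelium and stroma stay within a narrow range.

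The genotypes were compared on these arrays with limma over 25860 genes, adjusted by Benjamini-Hochberg. At an adjusted p under 0.05 limma called 0 genes (0%), with a smallest adjusted p of 0.9996, and 638 genes (2.47%) had an unadjusted p under 0.05. Without WT vehicle replicate 2 limma called 0 genes, with a smallest adjusted p of 0.534 and 625 genes at an unadjusted p under 0.05. Without Arg260 vehicle replicate 3 it also called 0, with 481 such genes. Esr1 was 0.14 log2 units higher in Arg260 (SE 0.09, n = 4 and 4, adjusted p = 0.9996 by limma). Among genes above background on every array, the largest difference was 2.06 log2 units. A p that misses the threshold does not show that the genotypes are alike.

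The resting state was set against E2 over both genotypes, where 36.8% of the genes tested were higher and 36.1% lower with limma at an adjusted p under 0.05. The classes were chosen on vehicle arrays, so their own change is a description. On the E2 arrays 383 of the 433 brightest genes were again brightest and the other 50 bright. Of the 17983 moderate genes, 87 were not above background there. Of the 6832 genes not above background at rest, 58 were moderate and 1477 intermittent there. Among those 58, the named genes with the highest E2 levels were Trim15, Fgf21 (a metabolic hormone), Adm2 (an adrenomedullin peptide), Grin2c (a glutamate receptor subunit) and Rnase12. Trim15 had E2 levels of 0.54 to 1.94. In the lists, read against that background, 15 ribosomal proteins were higher and 22 lower of 79 tested. Respiratory chain subunits were higher in 64 and lower in 3 of 75 (median log2 change 0.50), proteasome subunits higher in 13 of 14 and immediate early genes in 24 of 27. Stroma markers were lower in 12 and higher in 2 of 17, with Dcn at 6.91 to 7.58 on the E2 arrays, and Hoxa genes lower in 9 of 11. Mitosis genes were higher in 4 and lower in 8 of 33, and the lower count was 17 without WT E2 replicate 3. Adipocyte markers were lower in 10 of 11, beside the spread between vehicle arrays given above. Among steroid receptors, 6 of 9 were lower and Pgr was higher.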

How the data were processed

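Total RNA (200 ng a sample, per the labels) was hybridised to 1-colour Agilent arrays, and the deposited intensity of each spot is the scanner's background-corrected processed signal, per the file headers, from Feature Extraction 10.10.1.1. The authors' deposited series table holds log2 values, normalized between arrays; it served as an alternative and shows which spots the authors left without a value. From the intensities, levels were computed as log2 processed signal minus the log2 75th percentile of each array, spots of a probe were averaged, and a gene was read by its probe with the highest mean over 16 arrays. Gene names come from the files, updated through RefSeq: an accession match named 27235 probes, a symbol match 3581 and a synonym 565, while 24300 were left as in the file. Probe coordinates are those of build mm9 in the files; promoters are RefSeq's, of GRCm38.p6.

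Genes well above background on at least 4 of 16 arrays (25860) were tested with limma 3.58.1 in R 4.3.3 over the 4 groups; Python 3.11.15 and pandas 2.3.3 did the rest. The fit was tested on simulated data. P-values measure only the spread between these samples, and the number of arrays limits the precision. Each slide held replicates 1 and 2, or 3 and 4, of every group. Deviations of same-numbered samples correlated at 0.03, 0.15, 0.09 and 0.35, so the numbers were not taken to pair the samples. Lists and named genes were chosen with earlier results of these data known. The rule names all steroid receptors, Xist and Y-linked genes, the 25 highest genes, the 2 highest and 2 lowest of each list, the 10 with the largest SD, and, of genes that differ with E2, 5 that appear and 5 that fall from the top. Other genes given with values, among them the genes with shared words below the 25 highest, the markers of Arg260 vehicle replicate 3, Muc1, Fos and the genes with a TATA-type word, were chosen after their values were seen. Values of 2 genes that the rule names are not reported here. The alternatives without the spots missing in the authors' table were chosen after seeing the data.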

Additional observations from a re-analysis of the deposited data

Results flagged for a closer look

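In 17 of 114 groups of 4 samples, 1 sample lay apart from the other 3, with a gap over the group's range above Dixon's critical value of 0.829. Chance gives about 1 in 20, but many of these genes were named because 1 array stood apart, so the count cannot be set against that share. On WT vehicle replicate 2 these were Psmb3 (-8.35), Ndufa8 (-8.16), Timm21 (-5.14), Zfp712 (-5.10) and Hap1 (-4.60), each low. On Arg260 vehicle replicate 3, Fpr1 (2.46), Cd72 (3.78), Adgre1 (4.64), Aif1 (5.54) and Fcer1g (5.04) were high, and Esr1 (3.57) and the mean of the ribosomal protein list (7.57) were low within the group. Among Arg260 samples, Tpt1 was high on replicate 1 (9.04) and Cldn3 on replicate 4 (4.91). Among WT samples, Myl9 was low on replicate 1 (7.71), Cyp2e1 was low on replicate 4 (1.59), and the mean of the B and plasma cell list was high on replicate 1 (-2.74).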

How the results depend on the processing

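Over 20 alternatives, most class counts moved by less than 1.5 times. The exceptions were as follows. In the authors' log2 table, which holds fewer probes, 2601 genes were bright, 2708 intermittent and 186 not above background. The brightest class held 871 genes at percentile 98 and 217 at the stricter of the thresholds tried, and 2393 genes were intermittent when 6 of 8 arrays sufficed. With the mean of all probes, 43 ribosomal proteins were brightest. The 184 genes with an SD over 1 became 119 with normexp and quantile normalization, 462 on slide 2 alone and 94 without Arg260 vehicle replicate 3 and the missing spots together; leaving out 1 sample gave 104 to 217, the lowest without Arg260 vehicle replicate 3. With the replicate block, 9502 genes were higher and 9385 lower with E2, and 0 differed between genotypes; same-numbered samples share only a number, and the block changed no call given here for genotype. The number of mitosis genes lower with E2 ran from 6 to 17 when 1 sample was left out. Of 4026 other values, 3775 stayed within 1.5 times and 251 moved further; the cause was not tested. Genes not above background have no measured level, so differences among them cannot be read.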
